A study of Mus musculus with 10 samples.

Results

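The alpha-arrestins are adaptor proteins with an arrestin fold that carry membrane proteins to NEDD4-family ubiquitin ligases. The genes described here are Txnip and Arrdc1, Arrdc2, Arrdc3 and Arrdc4, taken by name from the expression tables. They are 5 of 22552 listed genes, with 9 of 28702 listed transcripts. All 5 had a mean of at least 1 FPKM (a fragment count scaled to transcript length and to the depth of the library) over the 8 libraries and are among the 10901 genes tested. The family was chosen by name with FPKM values of these same libraries known, and Arrdc4 was singled out by the share of its transcripts that use each 3′ end. Those shares are therefore a description with no test, and the p-values of single members, which come from a fit of the whole table, are not independent evidence of a change.

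The study asked how the cold-inducible RNA-binding proteins Cirbp and Rbm3 act on mRNA in mouse embryonic fibroblasts. Poly(A) RNA was sequenced from 4 groups of 2 libraries: mock-transfected cells kept at 37 °C (here the control libraries), mock-transfected cells at 32 °C (the cold libraries), and cells at 37 °C transfected with siCirbp or siRbm3, small interfering RNAs against Cirbp or Rbm3. No group with a control siRNA is among the samples used here, so the effect of a target and that of siRNA transfection cannot be told apart. A further 2 samples are PAR-CLIP libraries, 1 per protein, from fibroblasts stably expressing FLAG-tagged Cirbp or Rbm3, cultured at 37 °C per the labels and grown in 100 µM 4-thiouridine for 16 h and precipitated with an antibody against FLAG. Genotype, sex, age and passage of the fibroblasts are not given in the sources used here, nor is it said whether replicates are separate cultures or whether both libraries of an siRNA group had the same siRNA, so the p-values measure only the spread between these libraries.

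Txnip binds thioredoxin and, like Arrdc4, limits glucose uptake by drawing glucose transporters from the cell surface. Both genes are known targets of the Mondo transcription factors, which dimerize with Mlx, sense phosphorylated glucose and bind paired E-boxes. Arrdc3 sorts membrane proteins, integrin beta-4 among them, toward degradation. Arrdc1 recruits the ESCRT protein Tsg101 to the plasma membrane and drives the budding of small vesicles, while Arrdc2 is the least studied of the family.

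Promoter sequence is shown for Txnip and Arrdc4, the pair whose mRNA levels had the widest range in these libraries. Each run holds the 250 bases before the RefSeq start on GRCm38.p6, 5′ to 3′ on the strand of the gene. Txnip lies at chr3:96557707-96557956 on the plus strand and Arrdc4 at chr7:68749239-68749488 on the minus strand. Capitals mark matches on either strand to 4 motifs: the double E-box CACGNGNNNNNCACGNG, the E-box CACGTG, the CCAAT box (CCAAT, which reads as ATTGG when it is on the other strand) and TATAA.
Txnip: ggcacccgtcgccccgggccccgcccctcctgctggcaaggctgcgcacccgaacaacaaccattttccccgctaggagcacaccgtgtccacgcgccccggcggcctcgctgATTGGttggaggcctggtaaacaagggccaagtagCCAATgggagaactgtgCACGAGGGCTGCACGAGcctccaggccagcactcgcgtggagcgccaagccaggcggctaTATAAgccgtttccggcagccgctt
Arrdc4: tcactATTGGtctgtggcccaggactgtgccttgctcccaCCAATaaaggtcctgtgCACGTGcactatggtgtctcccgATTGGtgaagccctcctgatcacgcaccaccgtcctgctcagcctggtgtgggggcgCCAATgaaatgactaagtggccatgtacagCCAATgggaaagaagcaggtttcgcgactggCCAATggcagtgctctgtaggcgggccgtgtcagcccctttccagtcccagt

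The Txnip window held 1 double E-box, CACGAGGGCTGCACGAG, from 85 to 69 bases before the start. This motif was found in 15 of 32851 RefSeq promoter windows of the same length (0.046%), belonging to 14 of 27025 genes, and in no window of the other members. Txnip also held a CCAAT box on each strand and a TATAA 25 bases before the start. The Arrdc4 window held 6 CCAAT boxes, 4 on its own strand and 2 on the other, and 1 E-box from 193 to 188 bases before the start. At least 1 CCAAT box was present in 33.9% of windows and at least 6 in 19 windows (0.058%), while the E-box was present in 6.02% and TATAA in 22.8%. Arrdc2 held 3 CCAAT boxes, 2 of the 3 Arrdc3 windows overlap and held the same 1, and Arrdc1 held none of the 4 motifs. The motifs were chosen with these sequences in view, and the cut-off of 6 is the count of Arrdc4 itself, so these shares are a description. Such matches are letters in a window, and binding was not measured at them.

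Each RNA-seq library held from 25130600 to 28170400 fragments, a depth that follows from its coverage and FPKM columns. Cirbp mRNA was at 10.8 and 6.07 FPKM after siCirbp against 15.9 and 17.1 in the controls, at 34.5 and 37.2 in the cold, and at 13.8 and 23.8 under the siRbm3 label. Rbm3 mRNA was at 3.05 and 1.16 FPKM under the siRbm3 label against 1.85 and 2.21 in the controls, so replicate 1 of that label held more of it than either control, against its label. Rbm3 was at 3.64 and 3.20 FPKM in the cold and at 5.54 and 7.55 after siCirbp. Of 8 fibroblast markers 6 had a mean of at least 1 FPKM, while Thy1 was listed at 0 in every library and Lum did not exceed 0.181. The sum of the fibroblast markers was 4603 to 4804 FPKM in the controls and 2517 to 2675 in the cold, with 2442 to 3076 after siCirbp and 3989 to 6365 under the siRbm3 label. Vim was its largest part, at 1838 and 3924 under the siRbm3 label. Col1a1, Col1a2, Vim, Pdgfrb and Fn1 were lower in both cold libraries than in the controls. Col3a1 went the other way, at 132.6 and 121.5 FPKM in the cold against 73.1 and 72.1 in the controls. Summed epithelial, endothelial and neural markers stayed at or below 1.24 FPKM in every library, and muscle markers summed to 0.531 to 3.12. The 5 macrophage and leukocyte markers summed to 10.1 to 10.4 FPKM in the controls, 17.5 to 21.3 in the cold, 3.61 to 8.04 after siCirbp and 7.62 to 15.8 under the siRbm3 label. Only Cd68 among them reached a mean of 1, with Ptprc, Emr1 and Itgam under 0.1 in every library. The 5 adipocyte markers summed to 10.3 to 10.6 FPKM in the controls, 26.9 in both cold libraries, 5.49 to 25.5 after siCirbp and 6.79 to 10.5 under the siRbm3 label. Only Fabp4 among them reached a mean of 1, with Adipoq, Plin1 and Lep under 0.1. The part of these markers in the results below was not tested, and in such bulk samples fewer cells of a type and less RNA per cell cannot be told apart.

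At 32 °C Arrdc4 rose 6.41-fold, Txnip stood higher and Arrdc1 and Arrdc3 lower in both cold libraries without passing the test over all groups, and Arrdc2 overlapped with the controls. Of the 5 members, limma called 1 higher (Arrdc4) and 0 lower at an adjusted p under 0.05. Over all tested genes it called 13% higher and 19.8% lower, 32.8% in all. For 4 of the 5 members the cold and control libraries did not overlap, 2 higher and 2 lower in the cold. The same was so for 84.9% of all tested genes (41.0% higher and 43.8% lower), so this count is near the background. The median log2 fold change was -0.09 over the 5 members and -0.02 over all tested genes.

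Arrdc4, on mm9 chromosome 7 from 75881880 to 75894124, was expressed at 13.6 and 12.8 FPKM in the controls, and the cold libraries held 79.7 and 90.0. The siCirbp libraries held 23.1 and 7.65, those labelled siRbm3 7.21 and 22.6. Both cold libraries lay above all 6 libraries kept at 37 °C. The log2 fold change at 32 °C, on the scale of log2(FPKM + 1), was 2.59 (SE 0.58, 95% interval 1.22 to 3.96, n = 2 per group, limma adjusted p = 0.0164). In size it was larger than the change of 99.2% of tested genes. The call was lost when any 1 of the 4 mock libraries was left out (log2 fold change 2.50 to 2.68). Such a fit has 1 library in a group, and fewer of all tested genes passed in it. With no filter on low values the call was also lost (limma adjusted p = 0.225), where 0.266% of all tested genes were called. With only the 2 mock groups in the fit Arrdc4 passed (limma adjusted p = 1.68e-07), where 69.3% were called.

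Txnip, on mm9 chromosome 3 from 96361880 to 96365780, had the highest level of the family in every library. Control libraries held 282.8 and 239.0 FPKM, cold libraries 438.9 and 483.0, siCirbp libraries 151.4 and 44.7, and those labelled siRbm3 73.2 and 287.9. The cold libraries were the highest of the 8, with a mean 1.77 times that of the controls, and the siCirbp pair lay below both controls. The log2 difference at 32 °C was 0.82 (SE 0.75, 95% interval -1.01 to 2.65, n = 2 per group, limma adjusted p = 0.436). The SE pools the spread of all 4 groups, and for Txnip the libraries of a pair differed 3.39-fold in siCirbp and 3.93-fold under the siRbm3 label, against 1.18-fold in the controls. With only the 2 mock groups in the fit, Txnip passed (limma adjusted p = 4.17e-04, both cold libraries higher), as did Arrdc1 (8.67e-04) and Arrdc3 (0.0263), in a fit that called 69.3% of all tested genes.

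Arrdc3, on mm9 chromosome 13 from 81022683 to 81035303, ranked below Txnip and above the other members in all 6 libraries at 37 °C. Control libraries held 58.2 and 53.9 FPKM, cold libraries 44.1 and 47.7, siCirbp libraries 46.7 and 28.3, and those labelled siRbm3 44.0 and 37.1. The controls were thus the highest group, and every other library lay below both of its libraries. The log2 difference at 32 °C was -0.28 (SE 0.23, limma adjusted p = 0.375), which did not pass.

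Arrdc1, on mm9 chromosome 2 from 24780872 to 24790801, was low throughout. Control libraries held 6.47 and 7.85 FPKM, cold libraries 4.51 and 4.40, siCirbp libraries 6.14 and 4.91, and those labelled siRbm3 4.73 and 7.97. The cold libraries were the lowest of the 8. The log2 difference at 32 °C was -0.58 (SE 0.24, 95% interval -1.13 to -0.02, limma adjusted p = 0.0976), which did not pass. It passed without replicate 1 or 2 of the siRbm3 label (limma adjusted p = 0.0234 or 0.0239) and with the trend of fold change on transcript length removed (-0.71, adjusted p = 0.0309). Its level rested on 175 to 321 reads per library, against 3257 to 33264 for Txnip.

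Arrdc2, on mm9 chromosome 8 from 73359037 to 73363619, was at 4.98 and 5.61 FPKM in the controls and 4.78 and 5.07 in the cold, which overlap. The siCirbp libraries held 4.75 and 2.84, and those labelled siRbm3 3.49 and 6.87. The log2 difference at 32 °C was -0.09 (SE 0.30, 95% interval -0.78 to 0.60, limma adjusted p = 0.844), and its sign turned under median centring (0.04) and quantile normalization (0.05). Centring moved the median of all tested genes at 32 °C from -0.02 to 0.11.

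**Figure D1:**
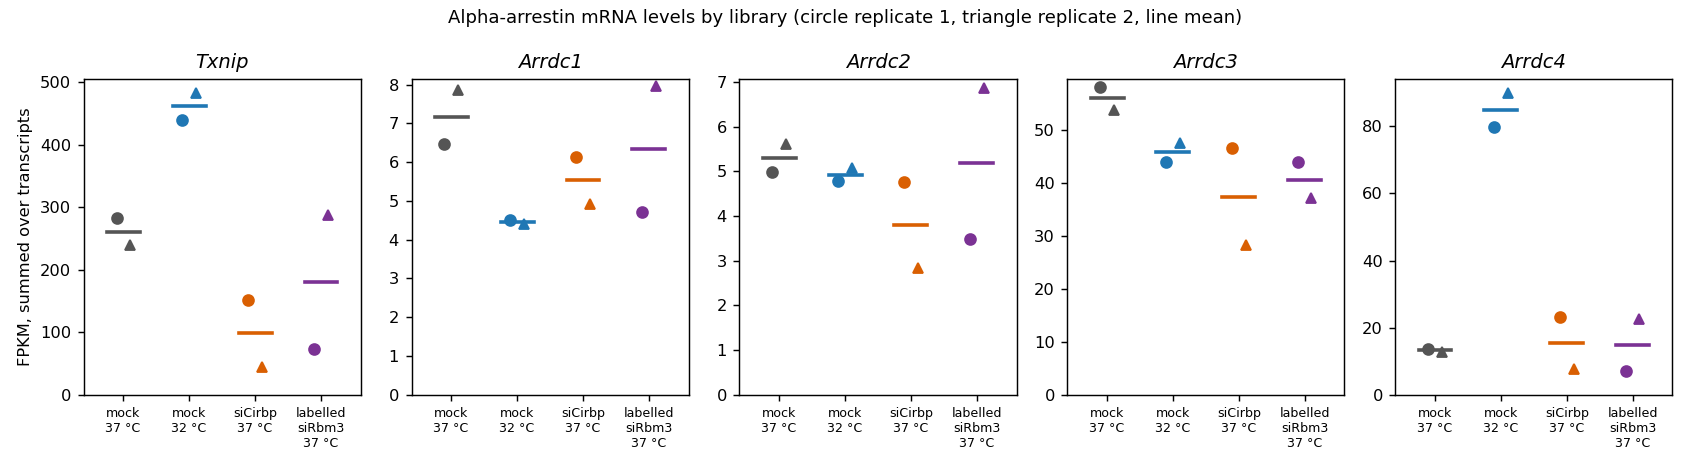
FPKM of each member (vertical axes, from 0) in the 4 RNA-seq groups (horizontal axes), with circles for replicate 1, triangles for replicate 2 and lines for group means. Arrdc4 stands at 79.7 and 90.0 FPKM in the cold and at or below 23.1 in all other libraries, while the siRNA pairs of Txnip are wide apart.

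After siRNA against Cirbp, Txnip stood at a mean of 98.0 ± 75 FPKM against 261 ± 31 in the controls (SD, n = 2 per group). Of the 5 members limma called 0, against 3.39% of all tested genes (2.77% higher and 0.624% lower). Txnip differed by -1.65 on the log2 scale (SE 0.75, 95% interval -3.47 to 0.18, limma adjusted p = 0.247). The Txnip value was -2.51 without siCirbp replicate 1 and -0.78 without siCirbp replicate 2. Arrdc3 differed by -0.61 (SE 0.23, limma adjusted p = 0.166). It moved to -0.96 without siCirbp replicate 1 (limma adjusted p = 0.0393, a call) and to -0.26 without siCirbp replicate 2 (limma adjusted p = 0.42). Arrdc1 differed by -0.32 (adjusted p = 0.447), Arrdc2 by -0.42 (0.431) and Arrdc4 by 0.02 (0.993), all by limma. At an unadjusted p under 0.05, 1 member and 2642 of the 10901 tested genes passed. In 4 of the 5 members both siCirbp libraries lay below both controls, and in none above. Over all tested genes the groups did not overlap for 60.4%, with siCirbp higher in 38.5% and lower in 21.9%. Arrdc4 was the exception, with 1 siCirbp library above and 1 below the controls.

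For the libraries labelled siRbm3, limma called 0 of the 5 members and 0 of all 10901 tested genes (0.0%). At an unadjusted p under 0.05 there were 0 members and 1451 tested genes. The log2 differences from the controls were -0.83 for Txnip, -0.18 for Arrdc1, -0.08 for Arrdc2, -0.46 for Arrdc3 and -0.03 for Arrdc4, with limma adjusted p from 0.412 to 0.987. Arrdc3 was below both controls in both libraries, and the other 4 members overlapped with them. Over all tested genes 50.5% did not overlap, with 13.3% of all lower under the siRbm3 label and 37.2% higher. The 3 comparisons with the controls share their 2 libraries. Between siCirbp and the siRbm3 label the libraries of all 5 members overlapped, where 36.3% of tested genes did not. Of the members 0 were called, against 0.0367% of tested genes by limma (0.0183% in each direction), with 0 members and 1654 tested genes at an unadjusted p under 0.05. There the Txnip difference was -0.81 (95% interval -2.64 to 1.02) and that of Arrdc4 0.05 (95% interval -1.32 to 1.42), so a difference of 1 log2 unit in either direction lies within both intervals.

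**Figure D2:**
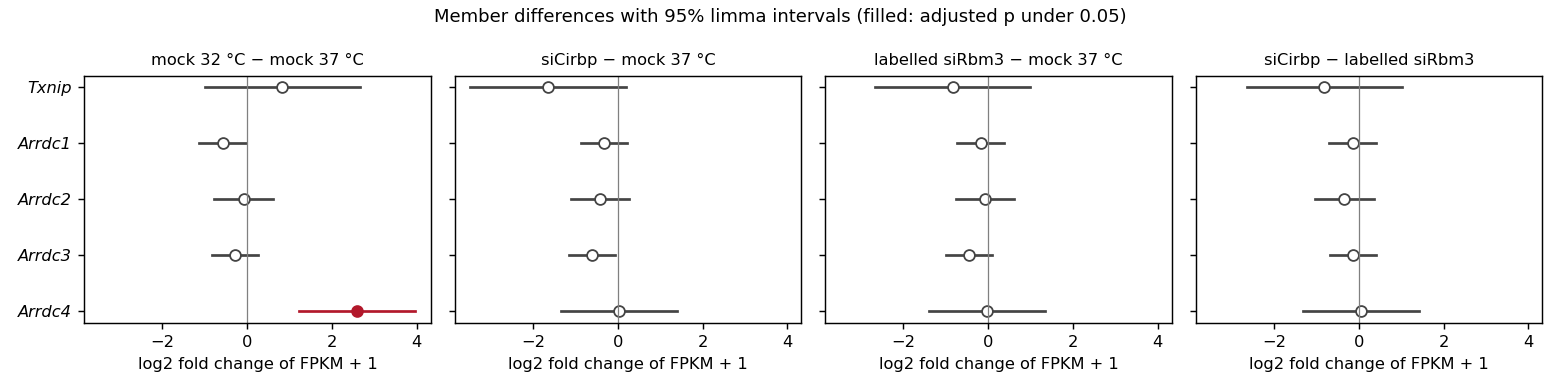
Log2 fold change of FPKM + 1 (horizontal axis) of the 5 members in the 4 comparisons, with 95% limma intervals as bars and filled points for an adjusted p under 0.05. Arrdc4 at 32 °C, at 2.59, is the 1 filled point of 20.

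The siRNA libraries of a group differed from each other more in Txnip and Arrdc4 than in nearly all other genes. In siCirbp, replicate 2 was below replicate 1 by 1.74 log2 units for Txnip and 1.48 for Arrdc4, where the median absolute difference of all tested genes was 0.261. These were larger than the differences of 99.0% and 98.6% of tested genes. Under the siRbm3 label the order was the opposite, with replicate 2 above replicate 1 by 1.96 for Txnip and 1.52 for Arrdc4 (larger than in 99.4% and 98.6% of tested genes, median 0.313). Arrdc1 and Arrdc2 had the same order of libraries as Txnip in both siRNA groups, with smaller gaps, at 0.272 and 0.582 in siCirbp and 0.647 and 0.809 under the siRbm3 label. Arrdc3 followed Txnip in siCirbp (0.704) and not under the siRbm3 label, where replicate 2 was lower by 0.238. In both mock groups the gap of every member was at or below 0.245.

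The ratio of Txnip to Arrdc4 FPKM was highest in the controls, at 20.7 and 18.7. Cold libraries had ratios of 5.51 and 5.37, siCirbp libraries 6.56 and 5.84, and those labelled siRbm3 10.2 and 12.8. In siCirbp the 2 libraries had nearly equal ratios while their Txnip levels differed 3.39-fold and their Arrdc4 levels 3.02-fold. The ratio was picked with these values in view, and no test is given.

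**Figure D3:**
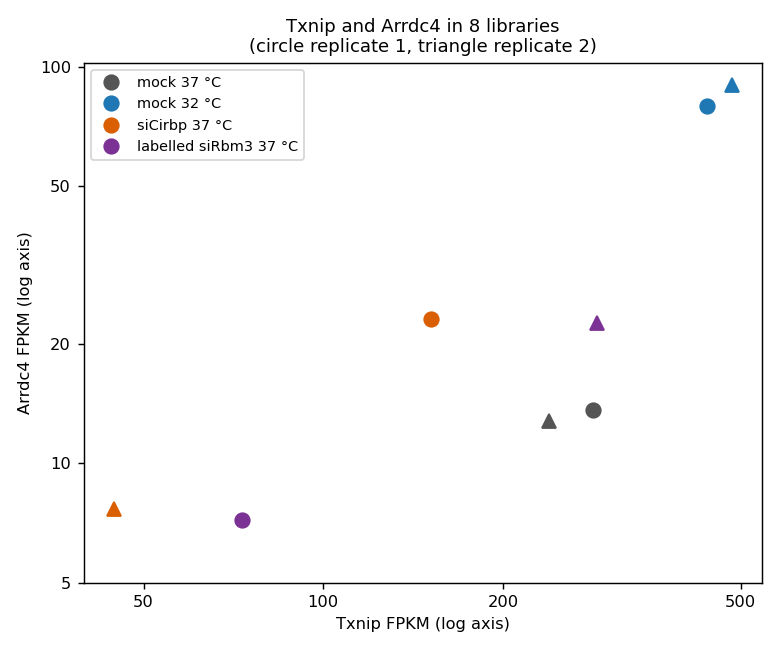
Txnip FPKM (horizontal, log axis) against Arrdc4 FPKM (vertical, log axis) in the 8 RNA-seq libraries, coloured by group, with circles for replicate 1 and triangles for replicate 2. The mock 32 °C libraries lie at the upper right, and siCirbp replicate 2 and replicate 1 labelled siRbm3 at the lower left.

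Arrdc4 has a pair of listed transcripts with 1 start and separate 3′ ends. NM_001042592 is 3903 nt long and runs to 75881880 on mm9 chromosome 7. NM_025549 is 1097 nt long and ends at 75886479, 4599 bp closer to the start. The gene is on the minus strand, so the longer transcript holds the distal end. The shorter transcript was at 7.89 and 7.21 FPKM in the controls and at 64.1 and 74.0 in the cold, a 9.14-fold higher mean. The longer one was at 5.75 and 5.59 in the controls and at 15.6 and 16.0 in the cold, 2.78-fold higher. Both forms were thus higher in the cold, and the shorter by more. The level of the shorter form rested on an estimated 197 and 175 reads in the controls and 1599 and 1745 in the cold. It rested on 108 reads in siCirbp replicate 2 and 105 in replicate 1 of the siRbm3 label.

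The longer transcript accounted for 42.2% and 43.7% of Arrdc4 FPKM in the controls and for 19.6% and 17.8% in the cold. The siCirbp libraries had 46.0% and 43.6%, and those labelled siRbm3 39.2% and 33.0%. The cold libraries had the lowest shares of the 8, siCirbp overlapped with the controls, and the siRbm3 label lay below it. As shares of reads, which do not divide by length, the means were 75.8% for the controls, 48.8% for the cold, 77.1% for siCirbp and 70.0% for the siRbm3 label, in the same order of groups. In siCirbp the level of Arrdc4 differed 3.02-fold between the libraries, with a share of 46.0% in the higher library and 43.6% in the lower. Under the siRbm3 label the level differed 3.13-fold, with 33.0% in the higher library and 39.2% in the lower.

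Fold changes were lower for longer transcripts over the whole table, with a Spearman correlation of -0.338 at 32 °C across 8492 tested genes of 1 transcript. It was -0.259 for siCirbp and -0.327 for the siRbm3 label, against the same controls. The 357 such genes within 10% of 1097 nt had a median log2 fold change of 0.33 at 32 °C, against 3.03 for the shorter Arrdc4 transcript. The 907 genes within 10% of 3903 nt had a median of -0.11, against 1.33 for the longer one. Since Arrdc4 was singled out by its transcripts, these values are set side by side with no comparison, and the part of length in them was not tested. How the reads of shared exons were divided between the transcripts is the authors' estimate and was not tested.

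**Figure D4:**
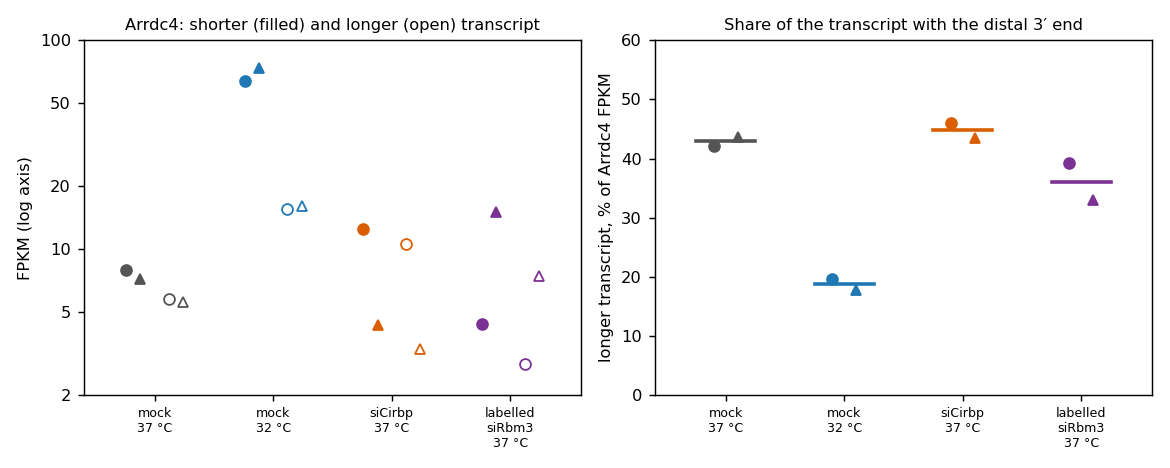
Left, FPKM (log axis) of the shorter (filled) and longer (open) Arrdc4 transcript in each library of the 4 groups. Right, the longer transcript as a percentage of Arrdc4 FPKM, with lines for group means, at 42.2% and 43.7% in the controls and 19.6% and 17.8% in the cold.

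Txnip and Arrdc1 also have several listed transcripts, of nearly the same length and span. The pair for Txnip, NM_001009935 of 2801 nt and NM_023719 of 2798 nt, shares both ends and differs by 3 nt. The former accounted for 70.2% and 70.4% of Txnip FPKM in the controls, and for 68.7% and 64.2% in the cold. The siCirbp libraries had 65.4% and 65.5%, and those labelled siRbm3 62.4% and 64.4%, so all 6 other libraries lay below both controls. The split of reads between forms 3 nt apart is the authors' estimate and was not tested, so no change of form is read from it. Of the 3 Arrdc1 transcripts, NM_001162485 (1695 nt) stood at 0.0060 FPKM in mock 32 °C replicate 1 and 3.30 in replicate 2, while NM_178408 (1692 nt) stood at 2.62 in replicate 1 and was listed near 0 in replicate 2. The gene level of Arrdc1 was 4.51 and 4.40 FPKM in these libraries, so the sum was steady while the split between forms 3 nt apart was not, and only the sum is used. Arrdc2 and Arrdc3 have 1 listed transcript each.

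The member loci held 1 PAR-CLIP site. In this method 4-thiouridine in RNA is crosslinked to the bound protein, and the deposited sites are short intervals with a score whose scale is not given. Of 1941 Cirbp sites 1 lay in a member locus on its strand, and of 2118 Rbm3 sites none did. The Cirbp site was in Arrdc3 at chr13:81033895-81033922 on mm9, plus strand, 28 nt wide, with its crosslink position at 81033908, 1395 bp before the listed 3′ end of the gene. Its score was 371, where the median Cirbp site had 301, and 67.3% of Cirbp sites had a lower one. Exon and UTR annotation on mm9 was not used here, so whether the site is in the 3′ UTR is not stated. Of 7724 tested genes with a known strand, 8.56% held a Cirbp site and 9.22% an Rbm3 site, set beside 1 of 5 and 0 of 5 members. With 5 members, these counts cannot be told apart from those shares. No site of either protein lay in the Txnip, Arrdc1, Arrdc2 or Arrdc4 loci, also with 1000 bp added on each side, and strand set aside. With 1 library per protein there is no replicate check, and a locus with no listed site may still be bound. Of the 53 listed genes that act with the family, only Wwp2 and Itch held a site. Wwp2 held 1 Rbm3 site on its strand (score 101, higher than 9.77% of Rbm3 sites). The Itch locus held 1 Cirbp site (score 233), whose strand was not matched to the gene. Both genes encode ubiquitin ligases that bind alpha-arrestins.

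Genes that act with the family were taken from 7 lists of 53 genes, 43 of which were tested. At 32 °C limma called 7 of the 43 higher and 14 lower, 21 in all, against 32.8% of all tested genes, with a median log2 fold change of -0.12. The lists were written with earlier results of these data known. With only the 2 mock groups in the fit 34 were called, against 69.3% of all tested genes. Without both libraries labelled siRbm3 28 were called, against 46.5%. Leaving out any 1 mock library, which leaves 1 library in a group, lowered the calls in the lists and over all tested genes.

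Among the Mondo factors, Mlxip, which encodes MondoA, fell from 13.3 ± 0.25 to 7.03 ± 0.11 FPKM (SD, n = 2 per group), and its partner Mlx rose from 19.8 and 20.2 FPKM in the controls to 29.2 and 30.3 in the cold. The log2 fold changes were -0.83 (limma adjusted p = 0.00943) and 0.55 (limma adjusted p = 0.0161). The third, Mlxipl, which encodes ChREBP, was listed at or near 0 in all libraries. Neither Mlxip nor Mlx was called in the siRNA groups. Mlx was still above both controls in every siRNA library, at 27.5 and 26.2 FPKM after siCirbp and 26.0 and 25.8 under the siRbm3 label. Its log2 differences there were 0.41 and 0.36 (limma adjusted p = 0.108 and 0.35). Of all tested genes, 38.5% were likewise above both controls in both siCirbp libraries and 37.2% under the siRbm3 label.

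Of the 6 tested genes of glucose uptake and phosphorylation 4 fell at 32 °C and none rose, with a median of -1.97, where 19.8% of all tested genes were lower and 13% higher. Calls for this and the other lists come from the fit with all libraries, and most were lost when 1 mock library was left out. The glucose transporter Slc2a1, a known cargo of Txnip, fell by 2.28 on the log2 scale. Hexokinase Hk1 fell from 91.7 ± 2.0 to 18.5 ± 1.1 FPKM (SD, n = 2 per group), Hk2 by 2.03 and glucose-6-phosphate isomerase Gpi1 from 93.2 ± 6.2 to 24.2 ± 0.32. In siCirbp and under the siRbm3 label none of the 6 was called. Slc2a3 and Slc2a4, the genes of other glucose transporters, did not exceed 0.231 FPKM in any library.

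In the thioredoxin system 4 of 9 genes rose at 32 °C and 1 fell (median 0.20), against 13% and 19.8% of all tested genes. The mitochondrial thioredoxin Txn2 rose from 50.8 ± 3.5 to 90.3 ± 1.6 FPKM, the peroxiredoxins Prdx1 and Prdx3 by 0.83 each, and glutaredoxin Glrx by 1.50 (SD, n = 2 per group). The mitochondrial reductase Txnrd2 fell by 0.72 on the log2 scale. Txn2, Prdx1 and Prdx3 also lay above both controls in every siRNA library, while Glrx overlapped with the controls in both siRNA groups. Over all tested genes, 38.5% lay above both controls in both siCirbp libraries and 37.2% in both labelled siRbm3. The log2 differences of Txn2, Prdx1 and Prdx3 were 0.63, 0.78 and 0.29 in siCirbp. Under the siRbm3 label they were 0.45, 0.31 and 0.23, and none of these passed limma's test. Txn1, the cytosolic thioredoxin that Txnip binds, differed by 0.07 at 32 °C (limma adjusted p = 0.73). Prdx2, at 118 and 137 FPKM in the mock groups, differed by 0.20 (limma adjusted p = 0.515).

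Txn1 was the 1 gene of the 43 called in siCirbp, against 3.39% of all tested genes, and 0 of the 43 were called under the siRbm3 label (8 at an unadjusted p under 0.05). It was at 166.9 and 185.3 FPKM after siCirbp against 97.4 and 105.2 in the controls, and those labelled siRbm3 held 129.5 and 131.1 (siCirbp log2 fold change 0.79, SE 0.14, limma adjusted p = 0.0364). Both siCirbp libraries lay above all others. The call was lost with quantile normalization, the length trend removed, a replicate block, only 2 groups in the fit or no filter. Without both libraries labelled siRbm3, 6 of the 43 were called, against 14.8% of all tested genes. The Txn1 call was also lost without siCirbp replicate 2 or any 1 mock library. Such fits leave 1 library in a group and called fewer of all tested genes.

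Among the 7 tested NEDD4-family ligases, Nedd4l was called lower at 32 °C, by 0.79 on the log2 scale, and none was called higher. Of all tested genes, 19.8% were called lower and 13% higher. Nedd4, at 273 FPKM in the controls and 197 in the cold, differed by -0.47 (limma adjusted p = 0.0603). The others of highest level, Wwp2 (-0.12, adjusted p = 0.523) and Smurf1 (-0.56, adjusted p = 0.0591), did not pass limma's test either. Wwp1 and Itch were higher in both cold libraries without passing (0.52 and 0.25, limma adjusted p = 0.0863 and 0.438). Of the 9 genes of the ESCRT and vesicle list 1 rose and 2 fell, a share near the 32.8% of all tested genes. Tsg101, the ESCRT-I subunit that Arrdc1 recruits, rose from 7.41 ± 0.38 to 10.9 ± 1.2 FPKM, while Hgs and Pdcd6ip (Alix) fell by 1.28 and 0.84 (SD, n = 2 per group). Vps28 and Vps4a differed by 0.69 and 0.22 without passing (limma adjusted p = 0.0622 and 0.311).

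Of the 5 tested genes with an arrestin fold outside the family, limma called 1 higher and 2 lower at 32 °C, against 13% and 19.8% of all tested genes. The beta-arrestin Arrb1 fell from 28.3 ± 0.80 to 3.95 ± 0.31 FPKM at 32 °C (log2 fold change -2.57, SE 0.29, limma adjusted p = 0.00244, SD, n = 2 per group). Arrb2 differed by -0.36 (limma adjusted p = 0.0939). The retromer subunits went apart, as Vps26a rose by 0.55 and Vps26b fell by 0.90 on the log2 scale, and Dscr3 differed by 0.21 (limma adjusted p = 0.464). Arrdc5, the remaining alpha-arrestin, was listed at 0 in 7 libraries and at 0.0470 FPKM in replicate 2 labelled siRbm3. Among 5 tested cargo and partner genes limma called 3 lower and none higher, against 19.8% and 13% of all tested genes. Notch1 (-1.42), Ddit4 (-1.17), a known partner of Txnip, and Insr (-0.47) fell at 32 °C. The iron transporter Slc11a2 differed by 0.32 (limma adjusted p = 0.186).

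**Figure D5:**
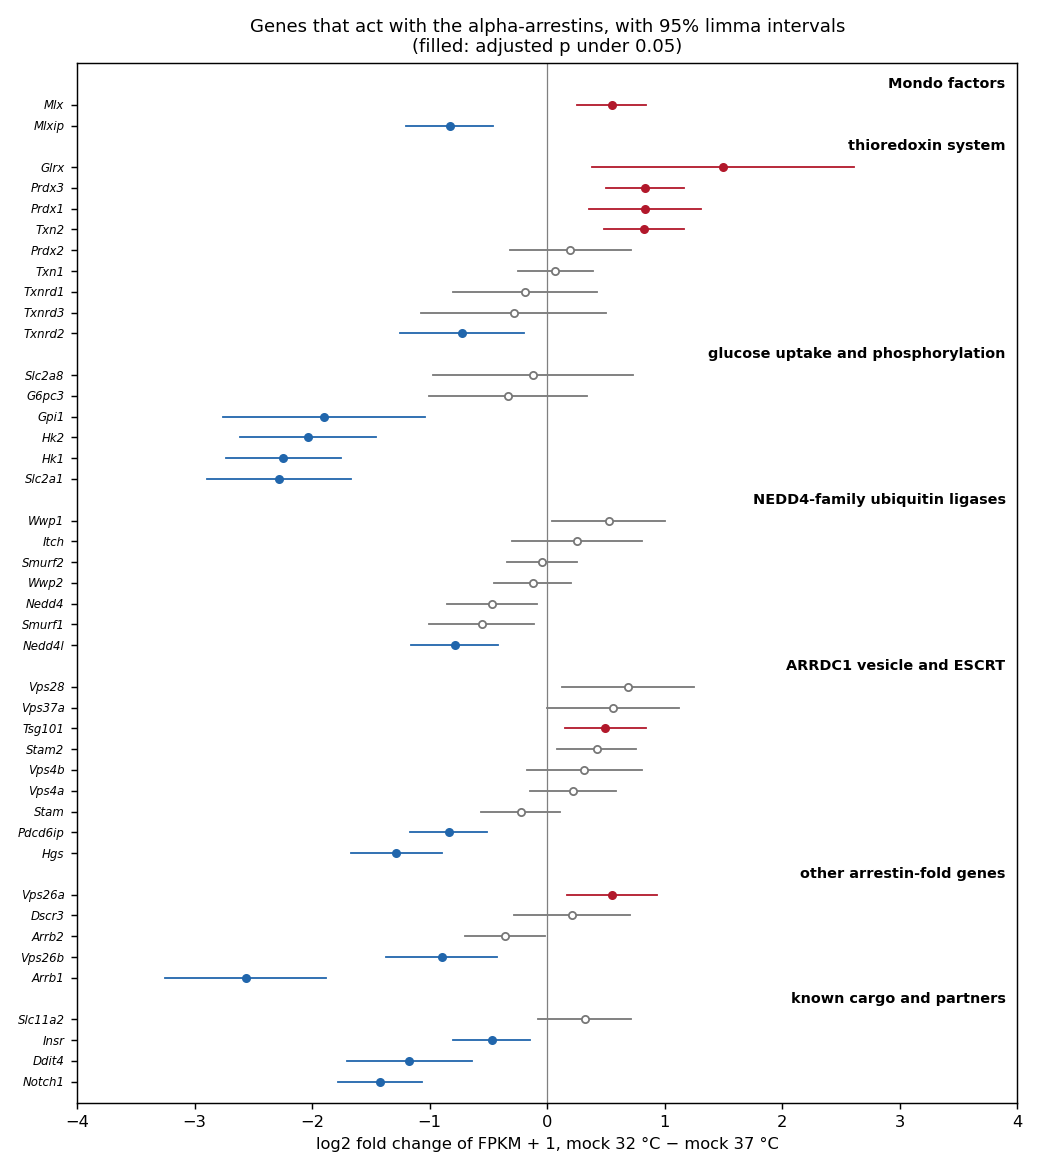
Log2 fold change of FPKM + 1 between mock 32 °C and mock 37 °C (horizontal axis) for 42 of the 43 tested genes that act with the family, by list, with 95% limma intervals as bars and filled points for an adjusted p under 0.05. Slc2a1, Hk1, Hk2, Gpi1 and Arrb1 lie at the far left, between -2.57 and -1.90.

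The genes whose pattern over the 8 libraries was most like that of each member were found by Pearson's r of log2(FPKM + 1) among genes with a mean of at least 5 FPKM, as a description with no test. For Arrdc4 these were Ifitm3 (0.990), an interferon-induced membrane protein, Fkbp11 (0.987) and 9230110C19Rik (0.985), all higher in both cold libraries than in the other 6. Txnip ranked 690 for Arrdc4 (r = 0.815) among 8608 candidates. For Txnip they were Zbtb25 (0.987), Hyi (0.977) and Poli (0.975), which encodes a translesion DNA polymerase. Like Txnip, all 3 were lowest in siCirbp replicate 2 and next lowest in replicate 1 labelled siRbm3. For Arrdc1 they were Plod1 (0.967), a collagen lysyl hydroxylase, Cnksr3 (0.960) and Loxl4 (0.959). For Arrdc2 they were Prdx5 (0.988), a peroxiredoxin, Ostf1 (0.981) and Rnf145 (0.980), and for Arrdc3 Snx14 (0.966), Dixdc1 (0.961) and the hyaluronan synthase Has2 (0.958). All these values rest on the same 8 libraries.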

How the data were processed

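Poly(A) RNA was measured in 8 libraries and PAR-CLIP in 2. The authors deposited 1 table per RNA-seq library, with the FPKM of each RefSeq transcript in Cufflinks columns. TopHat 1.1.2 and mm9 are named in the submitters' processing notes; the Cufflinks version is not given in the sources used here. Coverage, as deposited by the authors, is mean read signal per base and not scaled to depth. Its ratio to FPKM gave the number of fragments, and with 75 bases per read and fragments of 200 ± 80 nt, 90.6% to 92.0% of values from 5 to 40 reads were whole within 0.05. The labels state 76 nt reads. The deposited PAR-CLIP score has no stated scale, and its values are whole numbers between 1 and 1000, in files with a filter named in their headers, and the site caller is not given in the sources used here.

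FPKM were summed per gene. Genes with a mean of at least 1 FPKM were tested with limma 3.58.1 (R 4.3.3) on log2(FPKM + 1) with 4 group means and 4 residual degrees of freedom, trend and robust options, two-sided, with Benjamini-Hochberg adjustment over all tested genes at 0.05. The fit was tested on simulated data. Coordinates are 1-based. Promoters come from RefSeq on GRCm38.p6, and strands from the same table. All 5 members matched by symbol. Motifs were chosen with the sequences in view. The members, lists, comparisons and alternatives were chosen with earlier results of these data known. Named are the members, Cirbp and Rbm3, the 3 genes of highest mean FPKM of each list, every list gene called, and the 3 genes most like each member. Wwp1 and Itch are named in addition. Alternatives were other pseudocounts, filters, scalings, a replicate block, 2 groups in the fit, the highest transcript only, and libraries left out. A tested gene of the cargo list is counted and not reported by name here.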

Additional observations from a re-analysis of the deposited data

How the results depend on the processing

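Arrdc4 at 32 °C kept its direction under every alternative run. The number of members called at 32 °C, 1 in the report, was 0 with no filter and 2 with the length trend removed. Those fits called 0.266% and 30.7% of all tested genes. It was 4 with only 2 groups in the fit (69.3% of all tested genes). Without both libraries labelled siRbm3 (chosen after seeing the data) it was 2 (46.5%). It also moved with 1 library left out, which leaves 1 library in a group, as did the calls over all tested genes. In siCirbp, where it is 0, it moved without siCirbp replicate 1. It stayed at 0 for the siRbm3 label and for siCirbp against it. The number of genes that act with the family called at 32 °C was 0 with no filter and 34 with only 2 groups in the fit. It was 28 without both libraries labelled siRbm3, and it fell when any 1 mock library was left out. In siCirbp it was 0 with no filter (0.191% of all tested genes), quantile normalization (3.71%) or the length trend removed (0.844%). It was also 0 with a replicate block (0.0275%) or only 2 groups in the fit (0.119%), and 6 without both libraries labelled siRbm3 (14.8%). It ran from 0 to 3 for the siRbm3 label and from 0 to 10 for siCirbp against it, where 0 is the reported value of both, and 3 and 10 came without replicate 1 of that label.

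Log2 fold changes that turned sign were near 0 or rested on the siRNA libraries. Arrdc2 at 32 °C turned to 0.038 with median centring and 0.045 with quantile normalization. Arrdc4 in siCirbp turned to -0.048, -0.055, -0.22 and -0.014 with median centring, quantile normalization, the length trend removed and the highest transcript only. For the siRbm3 label it turned to 0.01 with a pseudocount of 5 and 0.12 with the highest transcript, and between both siRNA groups to -0.14 with the latter. Without 1 library, Arrdc4 ran from -0.72 to 0.76 in siCirbp, -0.79 to 0.73 for the siRbm3 label and -0.71 to 0.81 between them. In siCirbp Txnip ran from -2.51 to -0.78 and Arrdc3 from -0.96 to -0.26. For the siRbm3 label Txnip ran from -1.81 to 0.15, Arrdc1 from -0.51 to 0.14 and Arrdc2 from -0.49 to 0.32. Between the siRNA groups Txnip ran from -1.79 to 0.17, Arrdc1 from -0.46 to 0.18, Arrdc2 from -0.74 to 0.067 and Arrdc3 from -0.50 to 0.20. The cause of these changes was not tested.

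Deviations of same-numbered libraries from their group means correlated from -0.15 to 0.09 over all tested genes. With 2 libraries per group this cannot show whether same-numbered libraries share a culture or a batch. With the replicate block 1 member and 17 list genes were called at 32 °C (Arrdc4 limma adjusted p = 0.0323), against 29.2% of all tested genes. Among the summed gene levels, Arrdc1 and Arrdc2, at 171 to 369 reads per library, have the largest counting error of the family. The spread between libraries was widest for Txnip and Arrdc4.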
